A study of Oryza sativa with 2 samples.

Results

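Abscisic acid is the hormone that closes stomata and switches on drought and salt responses in plants, and it also holds seeds dormant. It is made from carotenoids in the plastid and broken down by cytochrome P450 enzymes that hydroxylate its 8′ carbon. Receptors of the PYR/PYL/RCAR family that have bound the hormone block clade A protein phosphatases 2C, which frees SnRK2 kinases to phosphorylate bZIP factors, and NAC and HD-Zip I factors act further along the response. The 8 genes described here cover these steps. They are ZEP of synthesis, ABA8OX1 of breakdown, the receptor PYL11, the phosphatase PP2C06, and the transcription factors BZIP23, NAC6, Hox22 and HOX24. They are 8 of the 17905 rice genes that the platform annotation ties to a probe set. Of the 8 genes, 7 were taken by a named probe set. ABA8OX1 was taken by the brightest probe set of its gene, LOC9269675, which has only 1. The genes were chosen by measured values of these arrays, ABA8OX1 by its mean signal and all with the ratio of the arrays known, so their ratios are given as a description and no test was run on them.

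The arrays hold leaf RNA of 6-week-old plants of Oryza sativa 9311, an indica variety, grown without treatment in a greenhouse at 28 °C with 14 h of light and 10 h of darkness. The control group is 9311 itself, and the other group is LRK1 transgenic 9311, titled LRK1 060615, which carries a transgene of LRK1, a leucine-rich repeat receptor-like kinase. Each group is 1 Affymetrix rice array. Leaves of 10 plants per genotype were selected, and the labels used here do not say whether their RNA was pooled for the array. The labels used here give neither the promoter of the transgene nor the number of transgenic lines. With 1 array per genotype, no difference below has a replicate check and no p-value is given. Every comparison is between these arrays, and their number limits the precision.

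The values are MAS5 signals on the log2 scale, and every ratio is LRK1 transgenic over control 9311. A signal counted as measured when it reached the floor, a log2 signal of 5.40, which is the median over both arrays. A gene was called higher or lower when it was measured on both arrays and its signals were at least 2-fold apart. A gene measured on 1 array alone was called when that signal was also at least 2 times the floor. Across all probe sets other than controls the median log2 signals were 5.21 (control) and 5.56 (transgenic). The median ratio was 0.23 over all probe sets and 0.08 over those measured on both arrays, and the bacterial spike controls had a median ratio of 0.34. No name in the gene table contains LRK, so the transgene's own signal was not checked. All 5 measured pairs of housekeeping probe sets had more 3′ relative to 5′ signal on the control array, with ratios of 9.45 and 6.95 for actin on the control and transgenic arrays, and the part of this difference in the results below was not tested. Of 7 leaf marker genes on the array, 6 were measured on both arrays, all with positive ratios from 0.46 to 1.40 as deposited, of which RCA turned to -0.04 after quantile normalization. Their linear signals summed to 191038 (control) and 295092 (transgenic), and RBCS1, a small subunit gene of Rubisco, was close to 0 on the control array (0.09) and just below the floor (5.20) on the transgenic one. The part of this shift in the results below was not tested either. In whole leaves, fewer cells that express a gene and less RNA per cell cannot be told apart.

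All 8 genes were well above the floor on both arrays, with log2 signals from 9.39 to 14.64. ABA8OX1 and PYL11 were just over 2-fold higher on the transgenic array and HOX24 was just over 2-fold lower, while ZEP, PP2C06, BZIP23, NAC6 and Hox22 lay within 2-fold. Among the 24426 probe sets measured on both arrays, 8.36% were called higher and 9.95% were called lower. The same shares were 6.55% and 8.7% among the 8506 probe sets at least as bright as the dimmest of the 8 genes. Nothing is read from 2 higher and 1 lower gene of 8 against these shares, since the genes were chosen with the contrast known. The ratios spanned 2.28 on the log2 scale, from -1.13 for HOX24 to 1.15 for ABA8OX1, with a median of 0.24. Over the 8506 bright probe sets the median ratio was 0.12.

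**Figure D1:**
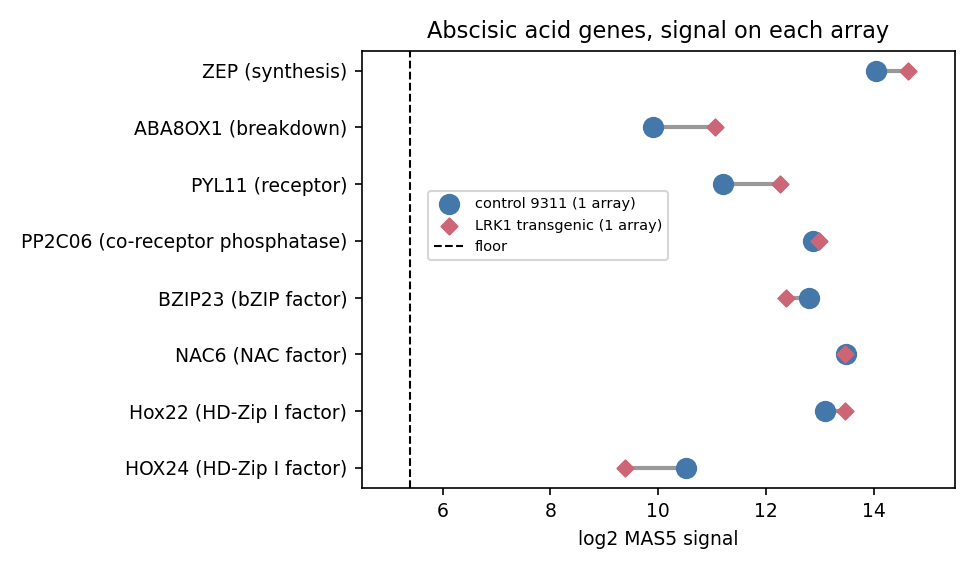
Log2 MAS5 signal (x axis) of the 8 abscisic acid genes on the control 9311 array (circles) and the LRK1 transgenic array (diamonds), 1 array each, with the floor of 5.40 as a dashed line. ABA8OX1 and PYL11 have the diamond well to the right of the circle, HOX24 has it to the left, and the symbols of NAC6 (13.48 and 13.46) lie on each other.

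ZEP (LOC4335984) encodes zeaxanthin epoxidase, which makes the epoxidised carotenoids from which abscisic acid is derived and also takes part in the xanthophyll cycle of leaves. Its log2 signal went from 14.04 in control 9311 to 14.64 in the transgenic plants. That is 1.51-fold higher on the transgenic array, with a ratio of 0.60, and it did not reach the 2-fold rule. Of the bright probe sets, 20.5% had a higher ratio than ZEP. The other synthesis genes found by name were carotenoid genes upstream of ZEP. Phytoene synthase catalyses the first committed step of carotenoid synthesis, and PSY2, the brightest of the list, had log2 signals of 14.57 and 14.75. All 5 genes of the synthesis list had positive ratios, from 0.18 to 0.98, with a median of 0.50, and none was past 2-fold. PSY2 turned negative after quantile normalization, loess and centring on the median ratio of all probe sets, and both PSY2 and PDS, a phytoene desaturase gene, turned negative with spike centring. PSY1, named after its value was seen, was closest to the rule, at 13.31 and 14.30 on a probe set that is not specific to 1 transcript (its name ends in _s_at). NCED genes, which encode the dioxygenase that cleaves the carotenoid precursor, had no probe set under the names searched and were not analysed here.

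ABA8OX1 (LOC9269675), also listed as CYP707A5, encodes an abscisic acid 8′-hydroxylase, the enzyme that starts the main route of the hormone's breakdown. Its log2 signal went from 9.89 in control 9311 to 11.04 in the transgenic plants, 2.22-fold higher. A higher ratio was found for 4.1% of the bright probe sets. The ratio of ABA8OX1 exceeded that of ZEP by 0.55, so signal for the breakdown gene was 1.47-fold higher relative to this 1 synthesis gene. A constant shift of the whole array leaves this difference as it is. It was 0.84 after quantile normalization and 0.77 after loess, which change bright and dim signals differently. The difference of 0.55 as deposited is not far above the SD of 0.450 between bright probe sets of 1 gene, given below. ABA8OX2 (LOC4345810), a relative of ABA8OX1 and also an 8′-hydroxylase gene, went the other way. It had log2 signals of 11.49 and 11.09 and a ratio of -0.39, which is within 2-fold. The probe set of ABA8OX2 is of the same unspecific kind.

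PYL11 (LOC4338104), which the gene table also lists as PYL5 and RCAR5, encodes a receptor that binds abscisic acid. Its log2 signal went from 11.21 in control 9311 to 12.26 in the transgenic plants, 2.08-fold higher with a ratio of 1.05. Of the bright probe sets, 5.48% had a higher ratio. Of the 23 receptor names searched, those of PYL11 were the only ones with a gene in the table, so the receptor family as a whole was not analysed here.

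PP2C06 (LOC4324201), also listed as ABIL1, encodes a clade A protein phosphatase 2C, the class of co-receptors that holds the kinases inactive until a receptor binds the hormone. Its log2 signals were 12.86 and 12.97, a ratio of 0.11 that lies in the middle of the bright probe sets, of which 49.5% had a lower ratio. The ratio of PYL11 exceeded that of PP2C06 by 0.95, or 1.93-fold. Of 7 listed clade A phosphatase genes on the array 6 were measured on both arrays, and none of these was past 2-fold in either direction. Their ratios ran from -0.33 for PP2C30 to 0.43 for PP2C09, both named after their values were seen, with a median of 0.11 as deposited and -0.22 with spike centring. PP2C51 was below the floor on both arrays.

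The SnRK2 kinases, named SAPK in rice, stand between the phosphatases and the bZIP factors, and all 10 family members were measured on both arrays. SAPK10 (LOC4333435) was 2.13-fold higher, from a log2 signal of 7.72 to 8.81, and none was 2-fold lower as deposited. Both centring on all probe sets and spike centring gave 0 higher and 1 lower. SAPK3, named after its value was seen, came closest to the rule in the other direction, with log2 signals of 11.06 and 10.10. The median ratio of the kinases was -0.05, with 4 positive and 6 negative ratios.

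**Figure D2:**
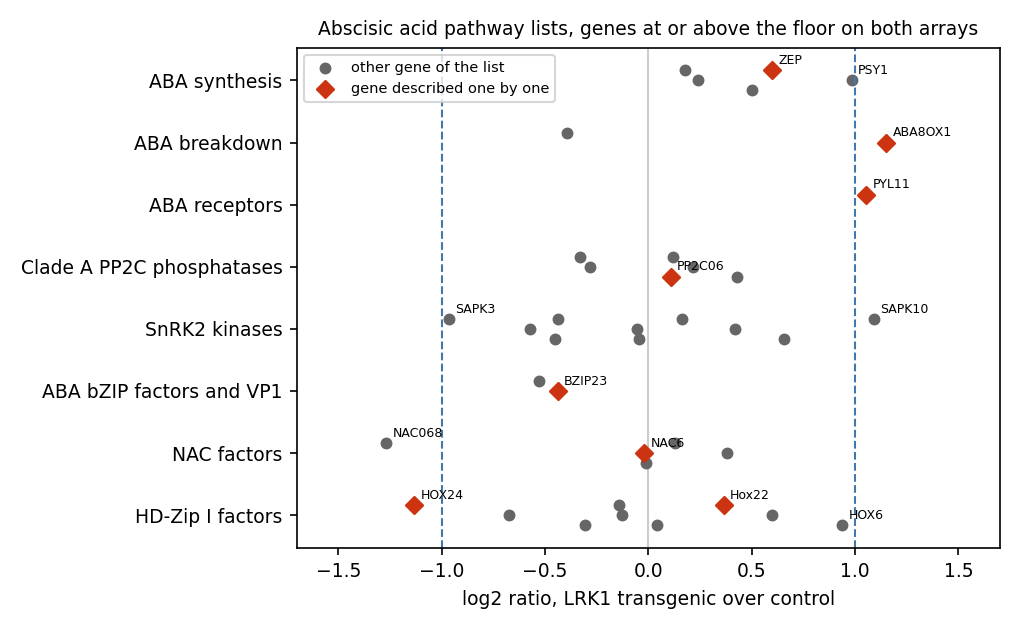
Log2 ratio of LRK1 transgenic over control 9311 (x axis) for genes of 8 abscisic acid lists (rows) measured on both arrays. Each point is 1 gene, diamonds are the 8 genes described one by one, vertical position within a row only separates points, and dashed lines mark 2-fold. The phosphatases lie between -0.33 and 0.43, and the kinases spread from -0.96 for SAPK3 to 1.09 for SAPK10.

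BZIP23 (LOC4330838), also listed as ABF2 and AREB1, encodes a bZIP factor of rice that binds abscisic acid response elements and raises drought and salt tolerance when overexpressed. Its log2 signal went from 12.80 in control 9311 to 12.36 in the transgenic plants, 1.36-fold lower, with a ratio of -0.44 that did not reach 2-fold. Of the bright probe sets, 21.5% had a lower ratio. TRAB1 (LOC4345807), a bZIP factor that works with VP1 in seeds, was the other gene of this list measured on both arrays. Its signals were 11.58 and 11.05, a ratio of -0.53. VP1 itself, a B3 factor of seed maturation, had a control signal of 4.88, below the floor, and a transgenic signal of 6.28, short of the rule for a gene measured on 1 array alone.

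NAC6 (LOC4325006), also listed as SNAC2, encodes a stress-induced NAC factor. Its log2 signals of 13.48 and 13.46 were the closest pair among the 8 genes, with a ratio of -0.02. The gene has 3 probe sets, and the other two were dim. They read 5.45 and 5.78 in one case, near the floor, and 2.83 and 3.76 in the other, below it, so the ratio rests on the bright probe set alone. The 26 NAC names searched gave 8 genes on the array, so the NAC family as a whole was not analysed here. Of these 8 genes, 5 were measured on both arrays, with a median ratio of -0.01. NAC068 (LOC4327485) was 2.41-fold lower, from 9.89 to 8.62. NAC010 (LOC4343630) was measured on the transgenic array alone, at 6.79 against 3.24, which makes it at least 2.63-fold higher.

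Hox22 (LOC4336542) and HOX24 (LOC4330155) encode homeodomain-leucine zipper factors of class I, a family with several members that respond to drought and abscisic acid. Hox22 had log2 signals of 13.09 and 13.46, 1.29-fold higher on the transgenic array and within 2-fold. HOX24 had log2 signals of 10.52 and 9.39, 2.19-fold lower, and 7.21% of the bright probe sets had a lower ratio. The ratio of Hox22 thus exceeded that of HOX24 by 1.497, or 2.82-fold. Of 12 listed class I genes on the array 9 were measured on both arrays. HOX24 was the only one past 2-fold as deposited, with 2 genes lower under spike centring, and the other ratios ran up to 0.94 for HOX6 (9.43 and 10.37). The median ratio of these 9 genes was -0.13.

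**Figure D3:**
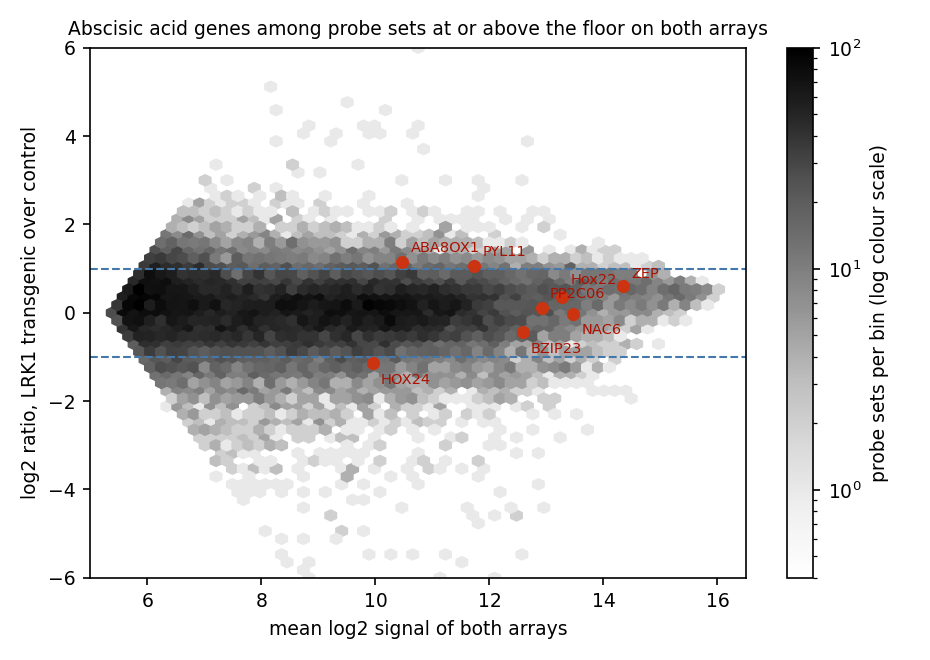
Log2 ratio of LRK1 transgenic over control 9311 (y axis) against the mean log2 signal of both arrays (x axis) for the 24426 probe sets measured on both arrays, shaded by their number per bin, with the 8 abscisic acid genes as labelled points and dashed lines at 2-fold. ABA8OX1, PYL11 and HOX24 lie just outside the lines, and the other 5 genes lie between them.

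Genes with more than 1 probe set show how far ratios differ between probe sets of 1 gene on these arrays. In 499 genes with at least 2 probe sets as bright as the dimmest of the 8 genes, the ratios of the first 2 probe sets differed with an SD of 0.450 and a median absolute difference of 0.19. The first ratio was past 2-fold in 75 of these genes, the second pointed the same way in 70 of the 75, and it too was past 2-fold in 55. This SD leaves out variation between plants, RNA extractions and labellings. Probe sets not specific to 1 transcript were kept, and pairs with overlapping targets were not set apart. The spread between independent probe sets may therefore be larger.

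The position of ABA8OX1 and PYL11 against the 2-fold rule depended on the scaling between arrays, while their direction did not. The ratio of ABA8OX1 was 1.18 after quantile normalization, 0.92 when centred on the median ratio of all probe sets and 0.81 when centred on the bacterial spikes. PYL11 had 1.07, 0.83 and 0.72 in the same order, and 0.99 after loess. HOX24 was past 2-fold lower under each of these scalings, from -1.08 after quantile normalization to -1.47 with spike centring. ZEP and Hox22 had positive ratios and BZIP23 negative ratios under all 12 alternatives tried. Alternatives that change only the floor, the fold rule or the choice of probe sets could not move these ratios. With spike centring ZEP was at 0.26, Hox22 at 0.03 and BZIP23 at -0.78. PP2C06 turned from 0.11 to -0.23 with spike centring, and NAC6 from -0.02 to 0.33 with the median over its probe sets.

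**Figure D4:**
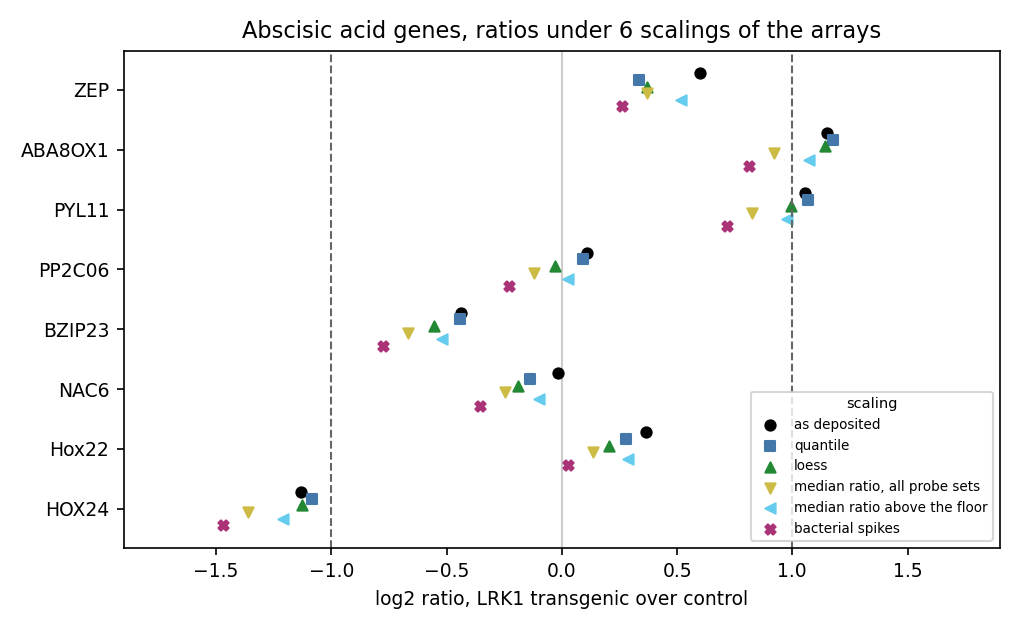
Log2 ratio of LRK1 transgenic over control 9311 (x axis) of the 8 abscisic acid genes (rows) under 6 scalings of the arrays, 1 symbol per scaling, with dashed lines at 2-fold. HOX24 lies beyond the lower line under every scaling shown, while ABA8OX1 and PYL11 lie on both sides of the upper line.

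The 8 lists together held 48 genes on the array, of which 40 were measured on both arrays. Without the 8 genes described one by one, 35 of 40 genes were measured on at least 1 array. Of these, 1 was higher and 1 lower past 2-fold, and 1 was called from the transgenic array alone. Among all 15150 genes measured on at least 1 array, 7.17% were called in favour of the transgenic array and 11.4% in favour of the control array, calls from 1 array alone included. The median ratio of these other pathway genes measured on both arrays was 0.02, with 16 positive and 16 negative ratios, and that of all genes measured on both arrays was 0.02.

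Dehydration genes, which encode protective proteins and are classic targets of abscisic acid, were split in direction. Of 9 on the array, RAB25 (8.94 and 6.81) and RAB16B (9.13 and 7.18) were at least 2-fold lower. LEA3, RAB16C and RAB16D were called from the control array alone. The control signals of these genes were 2.31, 2.64 and 2.07 times the floor, in that order, so RAB16D only just met the rule. The probe set of LEA3 is not specific to 1 transcript (its name ends in _s_at). RAB21 was higher, at 7.10 and 8.17, but under 2-fold with each of the 3 centrings. The brightest, LIP9 (11.97 and 12.38), as well as SALT (5.50 and 6.28) and EMP1 (5.52 and 5.83) had positive ratios within 2-fold. The share of all genes called in favour of the control array was 11.4%, as above. The median ratio of the 6 dehydration genes measured on both arrays was 0.36, which leaves out LEA3, RAB16C and RAB16D. Over all 9 genes, with signals below the floor raised to the floor, the median ratio was -1.05. LEA3, RAB16C, RAB16D, LIP9, SALT and EMP1 were named after their values were seen.

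Among 5 leaf senescence markers SGR, the stay-green gene, was lower at 13.06 and 11.86, and RCCR1, a gene of chlorophyll breakdown, at 10.22 and 9.14. The other 3 had ratios above 0 within 2-fold, at 0.40 for NOL, 0.29 for NYC1 and 0.13 for NAC2, all named with their values known. The list median of 0.13 was the ratio of NAC2, and it turned negative under 4 of the 5 other scalings. NAC2, which is also in the NAC list, had signals near the floor, at 6.14 and 6.27. SGR and RCCR1 were past 2-fold, and the share of all genes called in favour of the control array was 11.4%, as above. The probe set of SGR is not specific to 1 transcript (its name ends in _s_at). The part of these markers in the values above was not tested.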

How the data were processed

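Leaf RNA of both genotypes was hybridised to 1 array each. Per the submitters' processing notes, the authors used MAS5 for the deposited log2 signals. Its version and target level were not given in the sources used here, so whether both arrays were brought to 1 level is unknown. Labelling started at the poly-A tail, per the labels' protocols, so RNA integrity can change signals. The 123 control probe sets were kept apart from the other 57258, of which 22436 had 1 gene in the platform annotation. Genes were named through the table of assembly ASM3414082v1, and a listed gene was represented by its brightest probe set. The genes and lists were chosen with earlier results of these data known. Lists were matched by symbol or synonym, and a name shared by several genes was left out. Named genes were the 8 genes, up to 2 per direction past the rule in each list, otherwise its brightest, and close relatives. Some others were named outside this rule with their values known, among them RBCS1, RCA, PDS, TRAB1, VP1, PP2C51, LSI1 and GLUA-2. A fold for a gene below the floor on 1 array is signal over floor. Quantile normalization and loess (span 0.3) used limma 3.58.1. The size rule was tested on simulated data with 4-fold changes in bright probe sets. The simulated noise was smaller than the spread between probe sets of 1 gene given above. That test therefore does not cover calls just past 2-fold.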

Additional observations from a re-analysis of the deposited data

How the results depend on the processing

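With 1 array per genotype no replicate could be left out, and no signal can be separated from plant or array variation. No paired analysis was possible because each genotype has 1 array. Of the 8 genes, 2 were higher past the rule as deposited. After loess and when centred on the median ratio above the floor (a setting chosen after seeing the data) 1 was, and 0 were when centred on the median ratio of all probe sets, with spike centring or under a 4-fold rule. The 1 lower gene became 0 under a 4-fold rule. With a 1.5-fold rule ZEP was also called higher. The median ratio of the 8 genes ran from -0.10 with spike centring to 0.35 when all probe sets of a gene were combined by their median. The latter setting changed NAC6 alone, since the other 7 genes have 1 probe set each. It put a probe set of NAC6 near the floor in place of the bright one. Of the pathway genes, 4 higher calls became 1 when centred on the median ratio of all probe sets or on the spikes, 2 with the floor at the 75th percentile, 11 with a 1.5-fold rule and 0 with a 4-fold rule. The 2 lower calls became 4 with spike centring or a 1.5-fold rule and 0 with a 4-fold rule. Centring takes a positive constant off every ratio and a 4-fold rule asks for more, so both could only remove higher calls. For loess the cause was not tested. The difference between probe sets of 1 gene had an SD of 0.676 over all measured genes and 0.450 over bright ones, and NAC010, SAPK10 and several dehydration genes were dimmer than the 8 genes.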

Other observations

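Markers of tissues that a leaf sample should lack were not all low. Of 10 root marker genes on the array 3 were below the floor on both arrays, while NAAT1, of phytosiderophore synthesis, had log2 signals of 13.76 and 13.59 and the silicon transporter gene LSI1 10.40 and 10.50. Of 7 seed endosperm markers 4 were below the floor on both arrays, and the glutelin gene GLUA-2 had 11.11 and 11.60. Summed linear signals, control first, were 16704 and 15888 for the root markers and 6797 and 13253 for the endosperm markers. Single genes carried both sums, which were 2797 and 3557 for the root markers without NAAT1 and 2340 and 3366 for the endosperm markers without AGPS2. AGPS2, an ADP-glucose pyrophosphorylase gene that leaves also express, was 2.22-fold higher on the transgenic array, from 12.12 to 13.27.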
